A study of Mus musculus with 15 samples.

Results

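The genes of bile acid synthesis and of its control by the bile acid receptor FXR were followed in sorted mouse liver cells. The set holds 10 genes, chosen by symbol: the 8 enzymes Cyp7a1, Cyp8b1, Hsd3b7, Akr1d1, Cyp27a1, Cyp7b1, Slc27a5 and Baat, and the 2 nuclear receptors Nr1h4 (FXR) and Nr0b2 (SHP). They are 10 of the 24493 genes measured, and all 10 were among the 13905 genes with at least 1 TPM (a level per transcript length, scaled to the same total in every library) in at least 3 of 15 libraries. RNA was sequenced from 5 groups of 3 libraries, namely reprogrammed cells, biliary cells and hepatocytes of mice fed DDC, and biliary cells and hepatocytes of untreated mice. DDC is a porphyrinogenic chow additive that injures hepatocytes and bile ducts. Every mouse, the untreated ones included, was injected at 4 weeks of age with AAV-TBG-Cre, in which the hepatocyte promoter TBG drives Cre recombinase, and DDC chow was given from 5 weeks of age and lasted 4 weeks. The strain, the reporter allele, the sorting markers and the sex of the mice are not given in the sources used here. In all 15 libraries, the X-inactivation transcript Xist was at 0 to 0.0448 TPM as deposited and the Y-linked gene Ddx3y at 24.8 to 45.3 TPM. Nothing in the labels says that the 3 libraries of a group came from separate animals, so p-values measure the spread between these libraries, which may be technical.

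Bile acids are made from cholesterol in hepatocytes. In the classical pathway CYP7A1 sets the rate and CYP8B1 directs the product towards cholic acid, and in the alternative pathway CYP27A1 and CYP7B1 act on the side chain and the ring. HSD3B7 and AKR1D1 modify the sterol ring in both, and SLC27A5 and BAAT then join the finished acid to coenzyme A and to taurine or glycine. Bile acids activate FXR, which induces SHP, and SHP represses Cyp7a1 and Cyp8b1 through the receptors HNF4A and LRH-1 (Nr5a2).

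The RefSeq table of GRCm38.p6 held a promoter for 6 of the 10 genes, of which that of Nr1h4 lies at a start 26927 bases inside the annotated gene. The 250 bases upstream are given for Cyp8b1 and Nr0b2, because both fell under DDC in both cell types and are textbook targets of HNF4A and LRH-1. The Cyp8b1 sequence is chr9:121916306-121916555 on the minus strand, the Nr0b2 sequence chr4:133553126-133553375 on the plus strand. Capitals mark CAAAGTCCA, the binding sequence particular to HNF4A, and TCAAGG, the core of the LRH-1 site.
Cyp8b1: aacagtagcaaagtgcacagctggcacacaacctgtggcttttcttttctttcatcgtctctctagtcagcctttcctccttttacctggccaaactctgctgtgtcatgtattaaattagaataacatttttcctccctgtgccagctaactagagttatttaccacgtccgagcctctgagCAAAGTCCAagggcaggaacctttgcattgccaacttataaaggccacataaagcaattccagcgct
Nr0b2: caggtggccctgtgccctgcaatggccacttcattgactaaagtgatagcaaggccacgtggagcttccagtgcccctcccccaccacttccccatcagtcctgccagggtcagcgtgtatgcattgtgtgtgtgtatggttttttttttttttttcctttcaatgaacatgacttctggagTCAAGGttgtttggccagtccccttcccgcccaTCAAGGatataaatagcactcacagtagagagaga
CAAAGTCCA stood 67 to 59 bases upstream of the start in Cyp8b1, and 126 of 32851 promoters of the same window length (0.384%) held it on either strand. TCAAGG stood 68 to 63 and again 35 to 30 bases upstream in Nr0b2, and 4093 promoters (12.5%) held it. The hexamer AGGTCA, bound by many nuclear receptors, was in neither sequence and in 4607 promoters (14%); it can share its AGG with the end of TCAAGG. The same sequences were sought in the other promoters held. Akr1d1 had, on the opposite strand, TCAAGG at 213 to 208 bases upstream and AGGTCA at 232 to 227 and 210 to 205. Nr1h4 had AGGTCA on the opposite strand at 214 to 209, and Cyp27a1 and Hsd3b7 had no match. By the tests below, Hsd3b7 also fell under DDC in both cell types, and Akr1d1 fell in neither. Such matches describe the letters and do not show binding.

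No read totals accompany the TPM, so depth is unknown and no counting error can be attached to a value. Values below are TPM divided by 1 scale factor for each library, called scaled TPM, and a difference was called where the limma adjusted p was under 0.05 and the difference of log2(scaled TPM + 1) at least 1 in size. That scale understates changes of low genes. The scaling matters between cell types: over all genes tested, the deposited TPM gave log2 differences higher by 1.15 in the median for untreated biliary cells against untreated hepatocytes, by 1.01 for DDC biliary cells against DDC hepatocytes, by 0.72 for reprogrammed cells against DDC hepatocytes, by 0.95 for reprogrammed cells against untreated hepatocytes, and by 0.24 for DDC against untreated hepatocytes. Lower calls then made up 6.01% of the calls in the first of these in place of 42.0%, 8.28% in place of 41.6% in the second, 0.212% in place of 29.6% in the third, 6.56% in place of 37.8% in the fourth and 25.8% in place of 40.1% in the fifth. For reprogrammed against DDC biliary cells the deposited TPM gave differences that moved by a median of -0.30, with lower calls at 82.8% in place of 20.9%, and for the difference of the DDC responses they moved by 0.15.

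Biliary markers were high in the biliary and reprogrammed cells and low in hepatocytes, while hepatocyte markers were detected in every group. The 10 biliary markers, Krt19 and Sox9 among them, summed to 4418 to 10611 scaled TPM in reprogrammed cells, 7875 to 12868 in DDC biliary cells, 281 to 595 in DDC hepatocytes, 10432 to 12095 in untreated biliary cells and 18.3 to 24.9 in untreated hepatocytes, where 4 of the 10 were at 0 in every library. The 23 hepatocyte markers outside the bile acid pathway had none at 0 in all libraries of any group. They summed to 50825 to 139237 in reprogrammed cells, 24818 to 55028 in DDC biliary cells, 153507 to 280541 in DDC hepatocytes, 48617 to 64555 in untreated biliary cells and 245012 to 275972 in untreated hepatocytes. The highest sum of the reprogrammed cells was that of library 2. The 11 macrophage and leukocyte markers summed to at most 103 in any library, the 7 endothelial markers to at most 24.2 and the 7 stellate and fibroblast markers to at most 58.7.

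**Figure D1:**
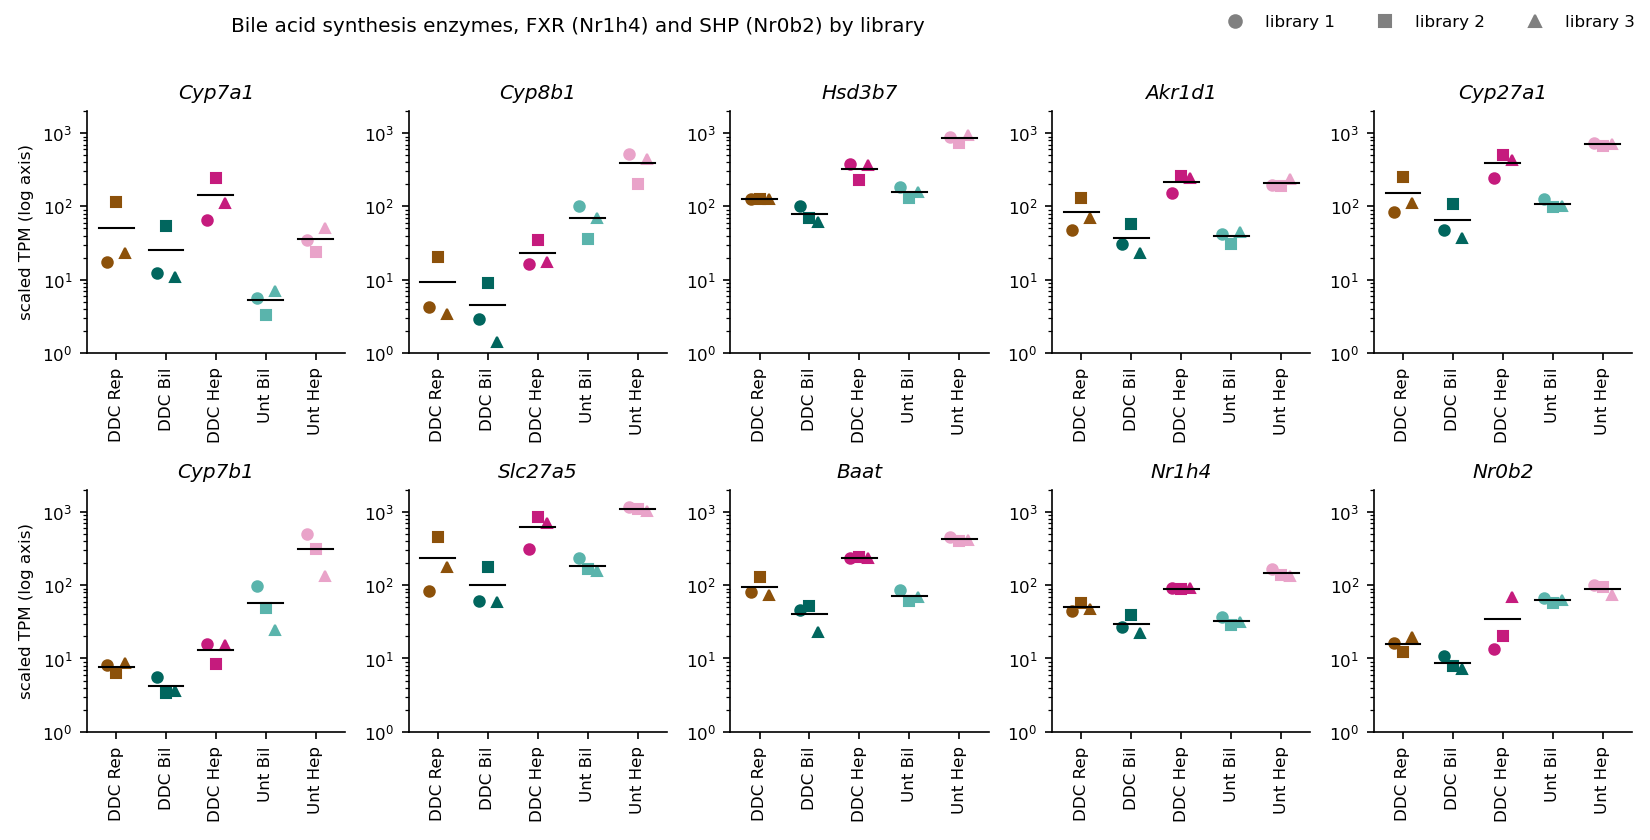
Scaled TPM (log axis) of the 10 genes in the 15 libraries, 1 panel for each gene; marker shapes give the library number and bars the group mean. Cyp8b1 and Cyp7b1 lie lower in all 3 DDC groups than in both untreated groups, while Cyp7a1 lies highest in DDC hepatocytes.

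DDC hepatocytes were first compared with untreated hepatocytes. Cyp8b1, Hsd3b7, Cyp7b1 and Nr0b2 fell, 4 of the 10 genes, and 0 rose; over all genes tested 11% were called, 6.59% as higher and 4.42% as lower. The median log2 difference of the 10 genes was -0.93, against 0.015 over all genes tested. The 4 that fell include the sterol 12-hydroxylase, the oxysterol 7-hydroxylase and SHP, while the rate-limiting enzyme Cyp7a1 had higher values under DDC that did not pass the adjusted test. Hepatocyte markers summed to 153507 to 280541 scaled TPM in DDC hepatocytes and 245012 to 275972 in untreated hepatocytes. Biliary markers summed to 281 to 595 in DDC hepatocytes and 18.3 to 24.9 in untreated hepatocytes. Most of the biliary sum in DDC hepatocytes was Spp1, and 3 of the 10 biliary markers were called higher. The part of both marker sets in the results was not tested.

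Cyp7a1, the rate-limiting enzyme of the classical pathway, is on chromosome 4 at 6265612 to 6275633 on the minus strand (GRCm38, GENCODE M21). It had 65.7, 248 and 113 scaled TPM in DDC hepatocytes, against 34.5, 24.01 and 50.4 in untreated hepatocytes. All 3 DDC libraries were above all 3 untreated ones, but the DDC libraries spread widely. The log2 difference was 1.79 ± 0.73 (SE, n = 3 each; 95% interval 0.22 to 3.36; limma adjusted p = 0.0851), and thus was not called. In TPM as deposited it was 2.03 (limma adjusted p = 0.0374), which passes the thresholds. So does the 1.79 without reprogrammed library 2, which enters through the shared spread (limma adjusted p = 0.0386). No other setting tried called it. Leaving out 1 library at a time, it ranged from 1.29 to 2.23, and 1 of the 15 fits changed the call.

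Cyp8b1, the sterol 12-hydroxylase whose promoter carries the HNF4A sequence above, is on chromosome 9 at 121914356 to 121916305 on the minus strand. It had 16.5, 34.97 and 17.3 scaled TPM in DDC hepatocytes, against 514, 205 and 446 in untreated hepatocytes. The groups lay far apart, and the fall was 16.9-fold by the means, with a log2 difference of -4.00 ± 0.66 (SE; limma adjusted p = 0.000714). Because Cyp7a1 and Cyp8b1 differ oppositely, their ratio, which no scaling changes, was computed after their values were seen and is given without a test. Cyp7a1 over Cyp8b1 was 4.17, 5.59 and 6.83 in reprogrammed cells. Among DDC biliary cells it was 4.22, 5.93 and 7.62, and in DDC hepatocytes it was 3.98, 7.09 and 6.54. It was 0.0559, 0.0934 and 0.101 in untreated biliary cells and 0.0671, 0.117 and 0.113 in untreated hepatocytes. The ratio was thus above 1 in all 9 DDC libraries and under 1 in all 6 untreated ones. Same-numbered libraries of a treatment may share an animal, so these are not independent values. Hepatocyte markers were detected in every group, and their part in the ratio was not tested.

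Of the ring-modifying enzymes, Hsd3b7 fell and Akr1d1 was not called. Hsd3b7, the 3-beta-hydroxysteroid dehydrogenase of bile acid synthesis, is on chromosome 7 at 127800604 to 127803802 on the plus strand. It had 383, 229.6 and 373 scaled TPM in DDC hepatocytes, against 894, 745 and 957 in untreated hepatocytes. Every DDC library was below every untreated one (log2 difference -1.42 ± 0.22, SE; limma adjusted p = 0.000408). Akr1d1, the 5-beta-reductase on chromosome 6 at 37530173 to 37568815 on the plus strand, had 151, 259 and 246 scaled TPM in DDC hepatocytes, against 196, 187 and 240.2 in untreated hepatocytes. The groups overlapped, and the log2 difference was 0.044 with a 95% interval of -0.76 to 0.85 (limma adjusted p = 0.962).

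In the alternative pathway the later enzyme fell and the first was not called. Cyp27a1, the mitochondrial side-chain hydroxylase on chromosome 1 at 74713574 to 74737892 on the plus strand, had 242, 497 and 433 scaled TPM in DDC hepatocytes, against 743, 671 and 715 in untreated hepatocytes. The groups did not overlap, but the log2 difference of -0.92 did not pass the test (limma adjusted p = 0.132). Cyp7b1, the oxysterol 7-hydroxylase on chromosome 3 at 18071950 to 18243338 on the minus strand, is more abundant in male than in female mouse liver. It had 16.0, 8.43 and 15.2 scaled TPM in DDC hepatocytes, against 497, 313 and 136 in untreated hepatocytes. The untreated libraries spread widely, and even the lowest of them was well above every DDC library. The fall was 23.9-fold by the means, with a log2 difference of -4.34 ± 0.49 (SE; limma adjusted p = 4.2e-05).

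The conjugating enzymes had lower values under DDC without a call. Slc27a5, the bile acid coenzyme A ligase on chromosome 7 at 12988346 to 12998192 on the minus strand, had 317, 855 and 703 scaled TPM in DDC hepatocytes, against 1183, 1103 and 1049 in untreated hepatocytes. It had the highest mean of the 10 genes in both groups, and its difference of -0.95 on the log2 scale did not pass the test (limma adjusted p = 0.242). Baat, the amino acid transferase on chromosome 4 at 49489422 to 49506557 on the minus strand, had 235, 240.0 and 235 scaled TPM in DDC hepatocytes, against 458, 401 and 419 in untreated hepatocytes. Both groups were tight and did not overlap, and the log2 difference of -0.84 passed the adjusted p (limma adjusted p = 0.0311) but fell short of 1.

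Of the receptors, Nr0b2 fell and Nr1h4 was lower by less than the threshold. Nr1h4, on chromosome 10 at 89454234 to 89533585 on the minus strand, had 91.0, 89.6 and 90.5 scaled TPM in DDC hepatocytes, against 166, 138 and 134 in untreated hepatocytes, a log2 difference of -0.68 (limma adjusted p = 0.0124). Nr0b2, on chromosome 4 at 133553376 to 133556536 on the plus strand, had 13.3, 20.5 and 68.9 scaled TPM in DDC hepatocytes, against 100.2, 94.0 and 73.1 in untreated hepatocytes. Library 3 of the DDC hepatocytes came close to the lowest untreated library, while the other two lay far below it. The log2 difference was -1.68 ± 0.42 (SE; limma adjusted p = 0.0104). It was -2.35 without that library, and with only these 2 groups in the fit the call was lost (limma adjusted p = 0.119).

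DDC biliary cells were then compared with untreated biliary cells. The same 4 genes, Cyp8b1, Hsd3b7, Cyp7b1 and Nr0b2, fell, and 0 of the 10 rose, where 10.4% of all genes tested were called, 5.68% as higher and 4.74% as lower. Hepatocyte markers move with this comparison, since their sums were 24818 to 55028 scaled TPM in DDC biliary cells and 48617 to 64555 in untreated biliary cells, and their part in the result was not tested. In bulk libraries, fewer cells of a type and less RNA per cell cannot be told apart.

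Cyp8b1 had 2.90, 9.01 and 1.40 scaled TPM in DDC biliary cells, against 101.2, 35.5 and 69.4 in untreated biliary cells (log2 difference -3.82, limma adjusted p = 0.00107). Cyp7b1 had 5.56, 3.36 and 3.60 in DDC biliary cells, against 98.5, 49.7 and 24.5 in untreated biliary cells (log2 difference -3.31, limma adjusted p = 0.00034). Nr0b2 had 10.7, 7.87 and 7.15 in DDC biliary cells, against 67.0, 58.1 and 62.5 in untreated biliary cells (log2 difference -2.75, limma adjusted p = 0.00046). These groups did not overlap for any of the 3 genes, but the share of all genes without overlap is not given. The SHP values were tighter here than in hepatocytes. Hsd3b7 had 102, 70.0 and 61.5 in DDC biliary cells, against 183, 132 and 156 in untreated biliary cells. Its log2 difference of -1.02 (limma adjusted p = 0.00417) lay just past the threshold, and was -0.92 in TPM as deposited and -0.87 to -0.96 without DDC biliary library 2 or 3 or untreated biliary library 1.

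Cyp7a1 had 12.3, 53.4 and 10.7 scaled TPM in DDC biliary cells, against 5.65, 3.31 and 6.98 in untreated biliary cells. The groups again did not overlap, and the log2 difference of 1.73 was not called (limma adjusted p = 0.0972); without reprogrammed library 2 it was 1.74 (limma adjusted p = 0.0458), and without DDC biliary library 2, the highest of its group, 1.02 (limma adjusted p = 0.342). Akr1d1, Cyp27a1, Slc27a5, Baat and Nr1h4 had log2 differences of -0.16, -0.90, -1.09, -0.89 and -0.15, and none of these 5 was called. Cyp27a1 was called without DDC biliary library 2, at -1.35, and Baat without DDC biliary library 1 or 2 or untreated biliary library 2, at -1.10 to -1.002.

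The DDC response of hepatocytes minus that of biliary cells was called for 0 of the 10 genes by limma, and 0 had an unadjusted p under 0.05, where 8.4% of all genes tested were called, 4.94% as higher and 3.46% as lower. The largest differences of the responses were 1.06 for Nr0b2 (limma adjusted p = 0.309) and -1.02 for Cyp7b1 (limma adjusted p = 0.413) on the log2 scale. With the library number as a block within treatment, that of Cyp7b1 was called (limma adjusted p = 0.00825). A p that misses the threshold does not show that the cell types respond alike.

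**Figure D2:**
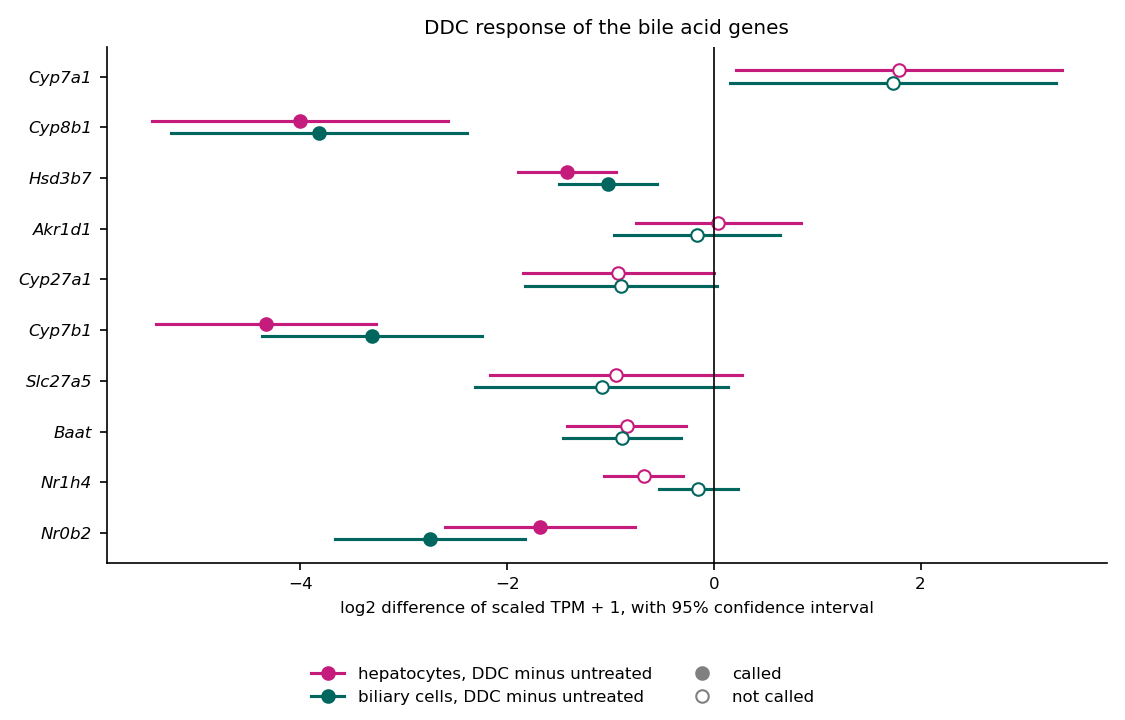
Log2 difference of scaled TPM between DDC and untreated cells for each of the 10 genes, in hepatocytes and in biliary cells; bars are 95% intervals, filled points were called and open points were not. Cyp8b1, Cyp7b1, Hsd3b7 and Nr0b2 are filled on the lower side in both cell types, and Cyp7a1 is open on the higher side in both.

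Biliary cells were next compared with hepatocytes of the same treatment. Untreated biliary cells had lower levels of 9 of the 10 genes than untreated hepatocytes, with 37.2% of all genes tested called, 21.6% as higher and 15.6% as lower. The 9 log2 differences lay between -2.70 for Cyp27a1 and -2.14 for Nr1h4. Cyp27a1, for example, had 128, 98.4 and 100.9 scaled TPM in untreated biliary cells, against 743, 671 and 715 in untreated hepatocytes. In TPM as deposited, the 8 enzymes in untreated biliary cells stood at 35.4% (Cyp7a1) to 45.4% (Akr1d1) of their mean in untreated hepatocytes. The 23 hepatocyte markers stood at 40.5% to 112%, with a median of 43.8%. Their part in the result was not tested.

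Nr0b2 was the exception. It had 67.0, 58.1 and 62.5 scaled TPM in untreated biliary cells, against 100.2, 94.0 and 73.1 in untreated hepatocytes, and the log2 difference of -0.49 was not called (limma adjusted p = 0.321). Its direction depends on the scaling: in TPM as deposited it had 89.3, 85.9 and 89.5 in untreated biliary cells, against 55.9, 57.2 and 42.9 in untreated hepatocytes, a log2 difference of 0.76 (limma adjusted p = 0.0918), and with quantile normalization the difference was 0.036. As a share of the hepatocyte mean in deposited TPM, Nr0b2 stood at 169.7% and Nr1h4 at 53.4%. In the deposited TPM the calls of Cyp7a1, Cyp8b1 and Nr1h4 were lost, Cyp7a1 and Cyp8b1 on the adjusted p (0.0685 and 0.078) and Nr1h4 at a log2 difference of -0.89. With quantile normalization the call of Cyp8b1 was lost, at -1.61 (limma adjusted p = 0.0615).

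Under DDC, all 10 genes were called lower in biliary cells than in hepatocytes, where 34.6% of all genes tested were called, 20.2% as higher and 14.4% as lower. The log2 differences lay between -2.73 for Slc27a5 and -1.43 for Cyp7b1. Nr0b2 had 10.7, 7.87 and 7.15 scaled TPM in DDC biliary cells, against 13.3, 20.5 and 68.9 in DDC hepatocytes, and its log2 difference of -1.56 was -0.89, short of the threshold, without DDC hepatocyte library 3; with only the groups compared its call was lost (limma adjusted p = 0.057). Cyp7a1 was at -3.31 in place of -2.60 without DDC biliary library 2. The call of Cyp7b1 (limma adjusted p = 0.0208) was lost without DDC biliary library 2 or 3 or DDC hepatocyte library 1 or 3, at limma adjusted p-values of 0.0588 to 0.0631, and with a pseudocount of 5, at a log2 difference of -0.97, and with sample weights (limma adjusted p = 0.0641). In deposited TPM the 10 genes in DDC biliary cells stood at 34.0% (Slc27a5) to 69.6% (Nr1h4) of the DDC hepatocyte mean, and the hepatocyte markers at 29.5% to 76.8%, with a median of 34.1%. In TPM as deposited 5 of the 10 calls held and 5 were lost.

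**Figure D3:**
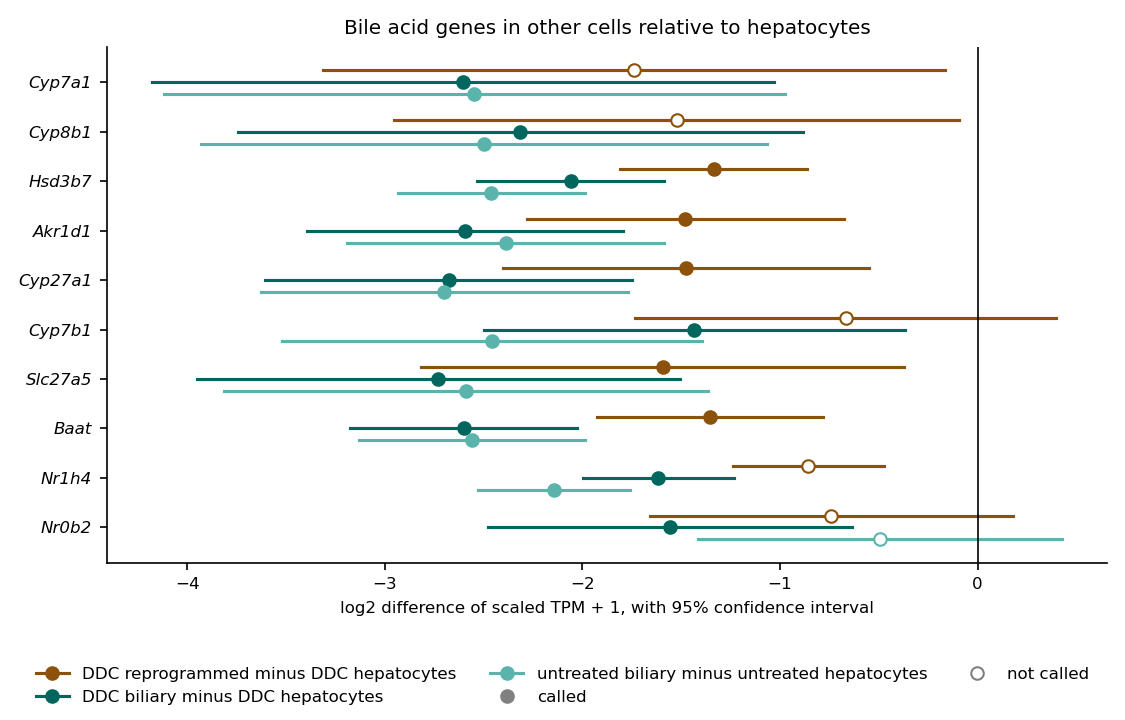
Log2 differences of scaled TPM for the 10 genes between reprogrammed or biliary cells and hepatocytes; bars are 95% intervals, filled points were called and open points were not. Biliary cells lie lower than hepatocytes for nearly every gene, with untreated Nr0b2 as the open point, and reprogrammed cells lie closer to DDC hepatocytes than biliary cells do.

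Reprogrammed cells were compared with hepatocytes and biliary cells of DDC mice. Against DDC hepatocytes, 5 of the 10 genes fell and 0 rose, where 19.5% of all genes tested were called, 13.7% as higher and 5.77% as lower. The 5 were Akr1d1 (log2 difference -1.48), Baat (-1.35), Cyp27a1 (-1.48), Hsd3b7 (-1.33) and Slc27a5 (-1.59). With TPM as deposited none of the 5 was called, at log2 differences of -0.80 to -0.54, though Baat and Hsd3b7 still passed the adjusted p (limma adjusted p = 0.0322 and 0.0448). With quantile normalization none of the 5 was called either, at -0.997 to -0.75.

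Baat had 81.4, 129 and 74.4 scaled TPM in reprogrammed cells, against 235, 240.0 and 235 in DDC hepatocytes (limma adjusted p = 0.0012). Hsd3b7 had 127, 127 and 125 in reprogrammed cells, against 383, 229.6 and 373 in DDC hepatocytes (limma adjusted p = 0.000345). Akr1d1 had 47.6, 131 and 69.4 in reprogrammed cells, against 151, 259 and 246 in DDC hepatocytes (limma adjusted p = 0.00564). In scaled TPM these 3 groups of reprogrammed libraries lay wholly below the DDC hepatocytes, but the share of all genes that did so is not given. In TPM as deposited Akr1d1 overlapped, at 139 in reprogrammed library 2 and 117 in DDC hepatocyte library 1. Hsd3b7 overlapped too, at 177 in reprogrammed library 1 and 159 in DDC hepatocyte library 2. For Akr1d1 library 2 was the highest reprogrammed library, as it was for Cyp27a1 and Slc27a5.

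Cyp27a1 had 83.2, 255 and 112 scaled TPM in reprogrammed cells, against 242, 497 and 433 in DDC hepatocytes (limma adjusted p = 0.0128). Its call was lost without reprogrammed library 1, at a log2 difference of -1.14 (limma adjusted p = 0.0628). Slc27a5 had 84.5, 450.2 and 179 in reprogrammed cells, against 317, 855 and 703 in DDC hepatocytes (limma adjusted p = 0.0336). Its call was lost without reprogrammed library 1 or 3 or DDC hepatocyte library 2 or 3, at log2 differences of -1.55 to -1.01 and limma adjusted p-values of 0.0812 to 0.156, and without the filter on low values (limma adjusted p = 0.0521); without reprogrammed library 2 it was -2.22. Both genes overlapped between the groups, through reprogrammed library 2.

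Cyp7a1 had 17.5, 113 and 23.1 scaled TPM in reprogrammed cells, against 65.7, 248 and 113 in DDC hepatocytes, and Cyp8b1 had 4.20, 20.3 and 3.39 in reprogrammed cells, against 16.5, 34.97 and 17.3 in DDC hepatocytes. Neither was called (log2 differences -1.74 and -1.52, limma adjusted p = 0.0654 and 0.0746). In both genes library 2 is the highest of its group in both cell types, and with the number as a block within treatment both were called (limma adjusted p = 0.000192 and 0.000531). Without reprogrammed library 2 both were called too, at log2 differences of -2.55 and -2.24. Cyp7a1 was also called without DDC hepatocyte library 1, at -2.19, or without DDC biliary library 2, at -1.74.

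Cyp7b1 had 8.17, 6.26 and 8.72 scaled TPM in reprogrammed cells, against 16.0, 8.43 and 15.2 in DDC hepatocytes (log2 difference -0.67, limma adjusted p = 0.284). Nr0b2 had 16.1, 12.2 and 19.4 in reprogrammed cells, against 13.3, 20.5 and 68.9 in DDC hepatocytes (log2 difference -0.74, limma adjusted p = 0.17). In TPM as deposited the 2 differences were 0.054 and 0.018, so neither has a direction that holds under both scalings. Without DDC hepatocyte library 1 Nr0b2 was called at -1.23, and without library 3 the difference was -0.079. Nr1h4 had 44.3, 58.1 and 46.9 in reprogrammed cells, against 91.0, 89.6 and 90.5 in DDC hepatocytes, and its log2 difference of -0.86 (limma adjusted p = 0.00172) fell short of 1.

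As a share of the DDC hepatocyte mean in deposited TPM, reprogrammed cells held 58.5% to 68.2% for 7 of the enzymes, 102% for Cyp7b1, 85.7% for Nr0b2 and 94.8% for Nr1h4. The hepatocyte markers stood at 59.1% to 95.4% there, with a median of 66.8%. Taken by library number the marker median was 57.1%, 84.4% and 57.5%, highest in library 2. By the same share library 2 was highest for every gene of the set except Nr0b2 (217%, 91.4% and 53.7%). By level, Cyp7a1, Cyp8b1, Cyp27a1, Slc27a5, Akr1d1, Baat and Nr1h4 were highest in library 2 among the reprogrammed libraries. The part of the marker level in these results was not tested.

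**Figure D4:**
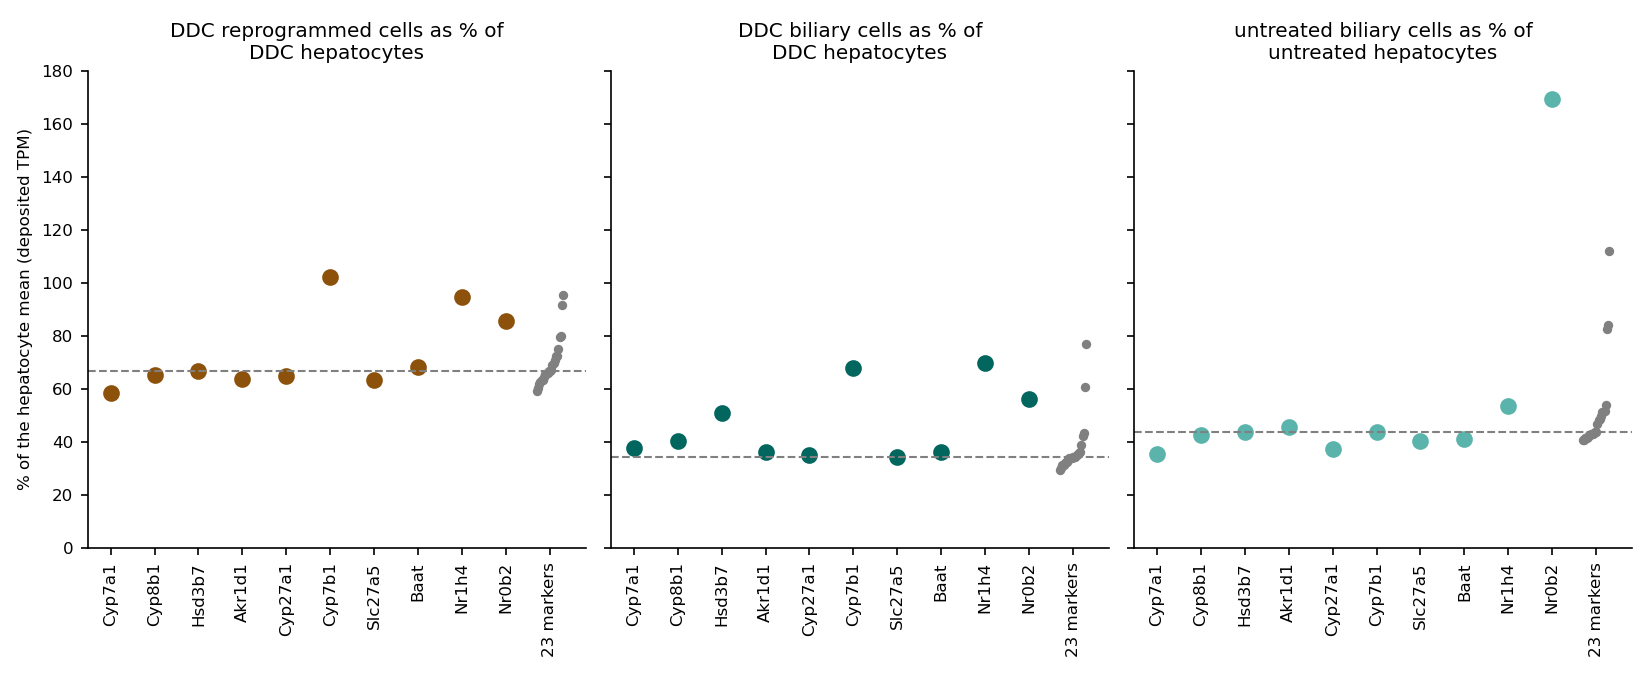
Level of each gene as a percentage of the hepatocyte mean of the same treatment, in TPM as deposited, for reprogrammed and biliary cells; grey points are 23 hepatocyte markers, and the dashed line is their median. Most enzymes lie near the line in each comparison, and Nr0b2 in untreated biliary cells lies furthest above it, at 169.7%.

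Against DDC biliary cells, 1 of the 10 genes rose in reprogrammed cells and 0 fell, where 3.51% of all genes tested were called, 2.78% as higher and 0.734% as lower. It was Baat, with 81.4, 129 and 74.4 scaled TPM in reprogrammed cells, against 45.7, 52.1 and 23.2 in DDC biliary cells (log2 difference 1.25, limma adjusted p = 0.0124). The groups did not overlap, but the call was lost without DDC biliary library 3 (0.90) or reprogrammed library 2 (1.01, limma adjusted p = 0.0573), and in TPM as deposited (0.95). Hsd3b7 (log2 difference 0.72) and Nr1h4 (0.76) passed the adjusted p and fell short of 1. Blocking by number within treatment also called Akr1d1 (1.11, limma adjusted p = 0.00934 in place of 0.0611), Cyp27a1 (1.20, 0.00861 in place of 0.0775) and Slc27a5 (1.13, 0.0157 in place of 0.193). Without reprogrammed library 1 these 3 were called as well, at 1.44 for Akr1d1, 1.54 for Cyp27a1 and 1.71 for Slc27a5, and without DDC biliary library 2 the first of them was at 1.48 and Cyp27a1 at 1.65, both called.

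**Figure D5:**
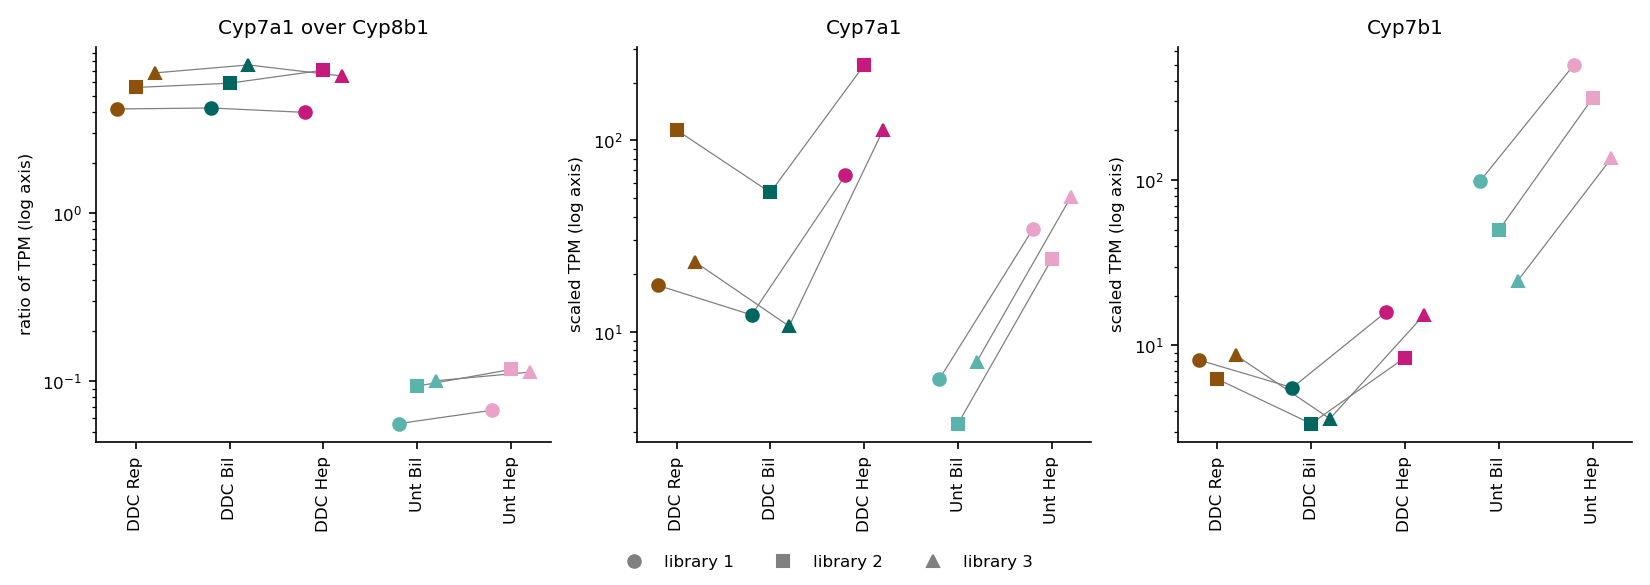
Ratio of Cyp7a1 to Cyp8b1 TPM, and scaled TPM of Cyp7a1 and of Cyp7b1 (all log axes), in the libraries of each group, with marker shapes for the library number and lines joining libraries of the same number within a treatment. The ratio lies above 1 in every DDC library and below 1 in every untreated one; Cyp7a1 is highest in library 2 of all 3 DDC groups, and the untreated spread of Cyp7b1 has the same order of libraries in biliary cells and hepatocytes.

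Against untreated hepatocytes, reprogrammed cells had lower levels of 9 of the 10 genes, where 33.1% of all genes tested were called, 20.6% as higher and 12.5% as lower. Cyp8b1 was 41.8-fold lower (log2 difference -5.52) and Cyp7b1 40.9-fold lower (-5.00) by the means. Without reprogrammed library 2 the log2 difference of Cyp8b1 was -6.24 and that of Slc27a5 -3.16 in place of -2.54. The other 7 lay between -2.76 for Hsd3b7 and -1.43 for Akr1d1; in TPM as deposited Akr1d1 (-0.38) and Nr1h4 (-0.48) were not called, nor were they with quantile normalization (-0.75 and -0.98). Cyp7a1 had 17.5, 113 and 23.1 scaled TPM in reprogrammed cells, against 34.5, 24.01 and 50.4 in untreated hepatocytes. The groups overlapped, and its log2 difference of 0.053 (limma adjusted p = 0.954) was -0.76 without reprogrammed library 2.

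The other genes of the pathway were followed from lists made by function. Of 13 other synthesis genes 12 were tested (Ch25h was too low), and in DDC against untreated hepatocytes 1 rose and 5 fell, where 6.59% of all genes tested rose and 4.42% fell. With TPM as deposited 1 rose and 2 fell, and with quantile normalization 1 rose and 1 fell. Of all 13905 genes tested, 1036 rose and 360 fell with TPM as deposited, and 624 rose and 424 fell with quantile normalization. The one that rose was Cyp39a1, the 24-hydroxycholesterol 7-hydroxylase, with 22.0, 67.4 and 57.0 scaled TPM in DDC hepatocytes, against 14.6, 13.1 and 28.2 in untreated hepatocytes (log2 difference 1.28, limma adjusted p = 0.0237). Scp2, the peroxisomal sterol carrier and thiolase, fell by 1.31 on the log2 scale, and Abcd3, a peroxisomal transporter, fell by 1.30. In biliary cells 0 rose and 4 fell under DDC, against 5.68% and 4.74% of all genes tested, and 7 of the 23 hepatocyte markers fell in the same comparison.

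Of 14 regulators 12 were tested (Fgf15 and Gpbar1 were too low), and in DDC against untreated hepatocytes limma called 0, with 2 at an unadjusted p under 0.05. Hnf4a had 254, 345 and 303 scaled TPM in DDC hepatocytes, against 371, 364 and 336 in untreated hepatocytes (log2 difference -0.26, limma adjusted p = 0.408). Nr5a2, which encodes LRH-1, had 37.8, 29.2 and 25.3 in DDC hepatocytes, against 46.2, 37.3 and 42.7 in untreated hepatocytes (-0.45, limma adjusted p = 0.0612). Both were named after their values were seen, because their products act on the genes above. In biliary cells 1 regulator rose and 3 fell under DDC, where 5.68% of all genes tested rose and 4.74% fell. Prox1, a homeobox factor that represses Cyp7a1, had 48.7, 27.8 and 29.7 in DDC biliary cells, against 117, 116 and 83.3 in untreated biliary cells (log2 difference -1.58, limma adjusted p = 0.00188).

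Of 12 bile acid transporters 11 were tested (Slc51a was too low), and 2 rose and 2 fell in DDC against untreated hepatocytes, where 6.59% of all genes tested rose and 4.42% fell. The TPM as deposited gave 5 that rose and 2 that fell, where 1036 of the 13905 genes tested rose and 360 fell. Slc51b, a subunit of the basolateral exporter and an FXR target, had 40.6, 84.7 and 88.4 scaled TPM in DDC hepatocytes, against 2.10, 2.01 and 3.71 in untreated hepatocytes (log2 difference 4.28, limma adjusted p = 3.5e-05). Abcc4, a basolateral export pump, had 27.6, 15.8 and 13.6 in DDC hepatocytes, against 0.677, 0.948 and 1.72 in untreated hepatocytes (3.21, limma adjusted p = 9.6e-07). The uptake carrier Slco1a1 had 0.335, 0.0954 and 0 in DDC hepatocytes, against 458, 478 and 386 in untreated hepatocytes (-8.60, limma adjusted p = 2.58e-12). In biliary cells Slc51b likewise had 9.78, 15.1 and 11.99 in DDC cells, against 0.327, 0 and 0.527 in untreated ones (3.37 on the log2 scale). The export pump of the canalicular membrane, Abcb11, had a log2 difference of -0.86 in hepatocytes (limma adjusted p = 0.00913), short of 1.

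In reprogrammed cells against DDC hepatocytes, 8 of the 12 other synthesis genes fell, as did 5 of the 12 regulators and 7 of the 11 transporters, and 1 regulator rose, where 5.77% of all genes tested fell and 13.7% rose. Of the 23 hepatocyte markers 19 fell in the same comparison. None of these lower calls, the markers' included, was kept in TPM as deposited, and with quantile normalization 1 synthesis gene, 3 regulators and 4 transporters fell. Of all 13905 genes tested, 9 fell with TPM as deposited and 746 with quantile normalization. Slc27a2, an acyl coenzyme A synthetase, had 131, 222 and 117 scaled TPM in reprogrammed cells, against 470.4, 455 and 399.6 in DDC hepatocytes (log2 difference -1.54, limma adjusted p = 0.0031). Nr1i3, the receptor CAR, had 20.4, 67.9 and 45.7 in reprogrammed cells, against 83.3, 162 and 162 in DDC hepatocytes (-1.68, limma adjusted p = 0.00477). The export pump Abcb11 had 69.6, 116 and 66.7 in reprogrammed cells, against 261, 247 and 242 in DDC hepatocytes (-1.61, limma adjusted p = 5.86e-05). In scaled TPM the reprogrammed libraries lay below all DDC hepatocyte libraries for these 3 genes, as they did for Akr1d1, Baat, Hsd3b7 and Nr1h4. Akr1d1 and Hsd3b7 overlapped in TPM as deposited, as did Nr1h4 (61.6 in reprogrammed library 2, 58.6 in DDC hepatocyte library 3). The share of all genes without overlap is not given.

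Against DDC biliary cells, reprogrammed cells had 6 of the 12 other synthesis genes higher, with 2 regulators and 2 transporters, where 2.78% of all genes tested were higher, and limma called none of the 3 lists' genes lower. Akr1c6, a hydroxysteroid dehydrogenase, had 443, 296 and 331 scaled TPM in reprogrammed cells, against 236, 125 and 88.4 in DDC biliary cells (log2 difference 1.34, limma adjusted p = 0.0245). Hnf4a had 103, 191 and 149 in reprogrammed cells, against 71.9, 84.7 and 58.4 in DDC biliary cells (1.002, limma adjusted p = 0.0119), just at the threshold. Abcb4, the canalicular phospholipid floppase, had 92.3, 183 and 116 in reprogrammed cells, against 58.1, 74.4 and 32.6 in DDC biliary cells (1.25, limma adjusted p = 0.0143). With TPM as deposited 1 synthesis gene was called higher and none of these regulators or transporters was. Of all 13905 genes tested, 120 were called higher with TPM as deposited. In scaled TPM the groups did not overlap for Akr1c6, Hnf4a and Abcb4, but the share of all genes without overlap is not given. Of the 23 hepatocyte markers 15 were called higher, and their sums were 50825 to 139237 in reprogrammed cells and 24818 to 55028 in DDC biliary cells; their part was not tested.

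In untreated biliary cells against untreated hepatocytes, 9 of the 12 other synthesis genes, 6 of the 12 regulators and 9 of the 11 transporters were lower, and 2 regulators and 1 transporter were higher, where 15.6% of all genes tested were lower and 21.6% higher. All 23 hepatocyte markers were called lower in the same comparison. Using TPM as deposited, 7 synthesis genes, 2 regulators and 6 transporters were lower, as were 14 of the 23 markers. Then 1 synthesis gene, 4 regulators and 1 transporter were higher. Over all 13905 genes tested, TPM as deposited gave 470 as lower and 7350 as higher. The transporter that was higher was Abcc4, with 11.6, 14.4 and 14.0 scaled TPM in untreated biliary cells, against 0.677, 0.948 and 1.72 in untreated hepatocytes (log2 difference 2.79, limma adjusted p = 3.68e-07).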

How the data were processed

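RNA was prepared from directly sorted mouse liver cells with the Qiagen RNeasy micro kit, per the labels' protocols. The deposited values are gene TPM, made with Salmon for mouse build mm10 per the submitters' processing notes; no Salmon version is given in the sources used here. Groups and numbers came from the library titles, and 0 columns were left unmapped.

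Genes with at least 1 TPM in at least 3 of 15 libraries were kept (13905 of 24493). Each library was divided by a median-of-ratios factor taken over 11924 genes. Log2(scaled TPM + 1) was fitted with limma 3.58.1 in R 4.3.3, with all 5 groups together, a variance trend over mean level and 10 residual degrees of freedom. Benjamini-Hochberg adjustment ran over all genes tested, and a gene was called at an adjusted p under 0.05 with a log2 difference of 1 or more either way. The 8 comparisons were fitted this way, and the procedure was tested on simulated data with known changes. Percentages of hepatocyte means used TPM as deposited, without the scale factors, and would differ in scaled TPM. Where groups are said not to overlap, scaled TPM is meant, and the share of all genes without overlap is not given.

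Besides the 10 genes, the text names up to 3 called genes of each list per comparison, each reaching 10 scaled TPM in 1 group, and for 6 members the 3 genes with the most similar profile; 1 gene that this rule names is not reported here, and any other gene is marked in the text as named after its value was seen. The members and lists were chosen with earlier results of these data known. Gene positions came from GENCODE M21 (GRCm38), promoter sequences from RefSeq. Plots used matplotlib 3.10.9 and Python 3.11.15.

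Pairing by number was checked through the correlation across genes of deviations from group means. Same-numbered libraries correlated at 0.136 to 0.449 between reprogrammed cells and DDC hepatocytes, at 0.208 to 0.456 between reprogrammed cells and biliary cells of DDC mice and at 0.150 to 0.236 between untreated biliary cells and hepatocytes, each above 0.1, and were taken as paired, although the labels do not say that a number marks an animal. Between DDC biliary cells and DDC hepatocytes the range was 0.0436 to 0.319, below 0.1 at its lower end. The main fit held no block for the number. Its p-values, given wherever no block is named, therefore ignore this pairing. The alternatives tried were quantile normalization, TPM as deposited, other pseudocounts and filters, only the groups compared, no trend, sample weights, the number as a block, the adjusted p alone, and leaving out each library in turn.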

Additional observations from a re-analysis of the deposited data

Results flagged for a closer look

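The difference between the DDC responses of the cell types is the hepatocyte response minus the biliary response on the log2 scale. It was called by limma for 6 genes of the wider pathway lists and for 0 of the 10 main genes. Those lists had 12 synthesis genes, 12 regulators and 11 transporters tested, and 8.4% of all genes tested were called. The main genes and the wider lists were not compared by a test. For the export pump Abcc4 it was 2.15 (limma adjusted p = 0.000906), from responses of 3.21 in hepatocytes and 1.06 in biliary cells. For the oxysterol hydroxylase Cyp39a1 it was 2.002 (limma adjusted p = 0.0267), from responses of 1.28 in hepatocytes and -0.73 in biliary cells, the second of which was not called. For the coactivator Ppargc1a it was 1.61 (limma adjusted p = 0.00909), from 0.31 in hepatocytes, not called, and -1.29 in biliary cells. For Prox1 it was 1.45 (limma adjusted p = 0.0388), from -0.12 in hepatocytes, not called, and -1.58 in biliary cells. For the uptake carrier Slco1a1 it was -2.56 (limma adjusted p = 1.82e-05), from -8.60 in hepatocytes and -6.03 in biliary cells, and the DDC libraries of both cell types were at or near 0. For the vitamin D receptor Vdr it was -2.02 (limma adjusted p = 2.05e-05). Biliary values were 2.65, 3.33 and 4.35 scaled TPM in DDC cells, against 0.105, 0.0697 and 0.0613 in untreated cells. Vdr was listed at 0 in all 6 hepatocyte libraries, and passed the filter only through DDC biliary and reprogrammed cells. Its difference is thus the biliary rise with the sign reversed, and holds no separate result about hepatocytes.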

How the results depend on the processing

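For reprogrammed cells against DDC hepatocytes, the count of called genes among the 10 was 5, against 0 with TPM as deposited, 0 with quantile normalization and 3 with only the groups compared. Other settings raised it. Sample weights added Cyp7a1 (-2.35, limma adjusted p = 0.00476) and Cyp8b1 (-2.26, limma adjusted p = 0.011). The replicate block within treatment added the same genes, and the adjusted p alone added Nr1h4. For DDC biliary cells against DDC hepatocytes it was 10, against 5 with TPM as deposited, and Nr0b2 was lost with only the groups compared and Cyp7b1 with sample weights or a pseudocount of 5. For reprogrammed against DDC biliary cells it was 1, against 0 with TPM as deposited, 0 with only the groups compared, 5 with sample weights, 3 with the replicate block over all samples, 4 with the replicate block within treatment and 3 with the adjusted p alone. For DDC against untreated biliary cells it was 4, against 7 with sample weights. For the difference of the DDC responses it was 0, against 1 each with quantile normalization (Nr0b2, 1.79), sample weights (Nr0b2, 1.52) and the replicate block within treatment (Cyp7b1, -1.02). Leaving out 1 library at a time, the counts ranged from 3 to 7 for reprogrammed cells against DDC hepatocytes and from 0 to 4 for reprogrammed against DDC biliary cells, and the cause was not tested. Over all 13905 genes, TPM as deposited called 9 lower and 4240 higher in reprogrammed cells against DDC hepatocytes, and quantile normalization 746 and 1218. As deposited, 645 were lower and 7142 higher in DDC biliary cells against DDC hepatocytes. In reprogrammed against DDC biliary cells they were 576 and 120. For the other settings the share of all genes called is not given, so their counts have no reference. Not run was the block within treatment across treatments, where the number is nested in treatment. Under the block over all samples, Cyp7a1 was also called in reprogrammed cells against DDC hepatocytes (limma adjusted p = 0.0454); the 2 block fits changed no call of the 10 genes other than those named here and in the results.

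Some log2 differences changed sign, all of values that were not called. With TPM as deposited, Cyp7b1 (0.054) and Nr0b2 (0.018) did so in reprogrammed cells against DDC hepatocytes and Nr0b2 (0.76) in untreated biliary cells against hepatocytes, where quantile normalization gave 0.036. For Cyp7a1 in reprogrammed cells against untreated hepatocytes, sample weights gave -0.50. In the difference of the DDC responses, TPM as deposited gave 0.15 for Cyp27a1 and 0.14 for Cyp8b1, quantile normalization 0.33 for Cyp27a1, -0.44 for Cyp7a1, 0.31 for Cyp7b1 and 1.10 for Cyp8b1, sample weights 0.13 for Cyp27a1, a pseudocount of 0.1 gave -0.076 for Cyp7a1 and 0.13 for Cyp8b1, and a pseudocount of 5 gave -0.016 for Baat. Leaving out 1 library at a time, these crossed 0: in the difference of the DDC responses, Cyp7a1 (-0.45 to 0.77), Cyp8b1 (-0.65 to 0.38), Cyp27a1 (-0.34 to 0.43), Baat (-0.30 to 0.26), Slc27a5 (-0.15 to 0.67) and Akr1d1 (-0.069 to 0.57); Cyp7a1 in reprogrammed cells against untreated hepatocytes (-0.76 to 0.56); Akr1d1 in DDC against untreated hepatocytes (-0.098 to 0.29); and Akr1d1 (-0.52 to 0.12) and Nr1h4 (-0.37 to 0.022) in DDC against untreated biliary cells. Depth is unknown, so no counting error could be given.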

Other observations

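The genes whose level over the 15 libraries was most like that of a bile acid gene are given by Pearson r of log2(scaled TPM + 1), as a description, since the libraries share cell types, treatments and scale factors. For Cyp7a1 they were Il22ra1, the receptor subunit for interleukin-22 (r = 0.976), Abcd2, a peroxisomal fatty acid transporter (0.974), and Por, the reductase that feeds electrons to cytochromes P450 (0.963). For Cyp8b1 they were Ces3b (0.979), Fam222a (0.967) and Cyp2d40 (0.960), and for Cyp7b1 Lifr, the receptor for leukaemia inhibitory factor (0.982), Sdr9c7 (0.978) and Nudt7 (0.978). For Cyp27a1 they were enzymes of amino acid breakdown, Sardh (0.995), Gcdh (0.994) and Gstz1 (0.994). For Nr1h4 they were Aldh5a1 (0.988), Zfand4 (0.985) and Lypla1 (0.984), and for Nr0b2 Cox14 (0.955) and Bdh2 (0.941). The highest r for Nr0b2 was the lowest of these 6 highest values.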
